A study of Danio rerio with 16 samples.

Results

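Overlapping convergent transcript ends are places where an RNA made from the plus strand and an RNA made from the minus strand run toward each other and both end past the point where the other ends, so that their last nucleotides share the same stretch of genome. They were taken as pairs of a plus-strand and a minus-strand 3′ end cluster no more than 100 nt apart in which the plus-strand position was at or above the minus-strand position. Of 2318 pairs of opposite-strand clusters within that distance, 900 overlapped and the other 1418 lay apart. The overlapping pairs used 737 plus-strand and 757 minus-strand clusters, 1494 of the 89825 clusters outside chromosome M. The choice used positions and a minimum of 4 pooled tags, and no level or difference between libraries.

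Poly(A) sites were mapped by 3P-Seq, a method that captures and sequences the ends of polyadenylated RNA, as part of a search for lincRNAs, long intergenic noncoding RNAs, in the zebrafish (Danio rerio). The animals were wild type and used whole: embryos at 24 hours post fertilization (hpf), embryos at 72 hpf, and adults of mixed gender, each stage with a single library and no replicate. Of the 16 samples of the series, 13 were not analysed here. Values given in threes are for 24 hpf, 72 hpf and the adult in that order. The libraries held 7423152, 9813481 and 7470435 tags, of which the clusters of overlapping pairs took 1.71%, 1.79% and 1.16%.

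Most eukaryotic mRNAs and many long noncoding RNAs are cleaved downstream of a poly(A) signal and then receive a poly(A) tail, so the position where the tail begins marks the 3′ end of the transcript. Genes in tail-to-tail order face each other with these ends. Where the ends overlap, the 2 RNAs are complementary over the overlap and each is an antisense partner of the other. The files give positions and counts without gene names, so the pairs are named here by chromosome and by the plus-strand and minus-strand positions, and the genes they belong to were not analysed here.

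Overlaps of a few nucleotides were the most frequent. The overlap ran from 1 to 101 nt with a median of 45 nt (95% order-statistic interval 41 to 48) and quartiles of 16 and 70.25 nt. The range and the median follow from the distance limit, and with a limit of 50 nt the median was 21 nt. Overlaps of 1 to 9 nt accounted for 182 pairs, or 20.2 pairs per nt of overlap. The longer classes held 237 pairs at 10 to 40 nt, 256 at 41 to 70 nt and 225 at 71 to 101 nt, between 7.26 and 8.53 pairs per nt. A single shared nucleotide was the most frequent overlap, with 39 pairs, followed by 3 nt with 29 pairs.

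The crowding near 0 was not limited to ends that overlapped. Among the pairs lying apart, 277 were separated by 1 to 9 nt, or 30.8 per nt, against 11.5 to 13.3 per nt in the wider classes. Directly adjacent ends, 1 nt apart, numbered 51. Well-covered pairs showed the crowding more: of 203 overlapping pairs with at least 20 pooled tags on each side, 64 (31.5%) overlapped by 1 to 9 nt, against 20.2% of all 900.

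**Figure D1:**
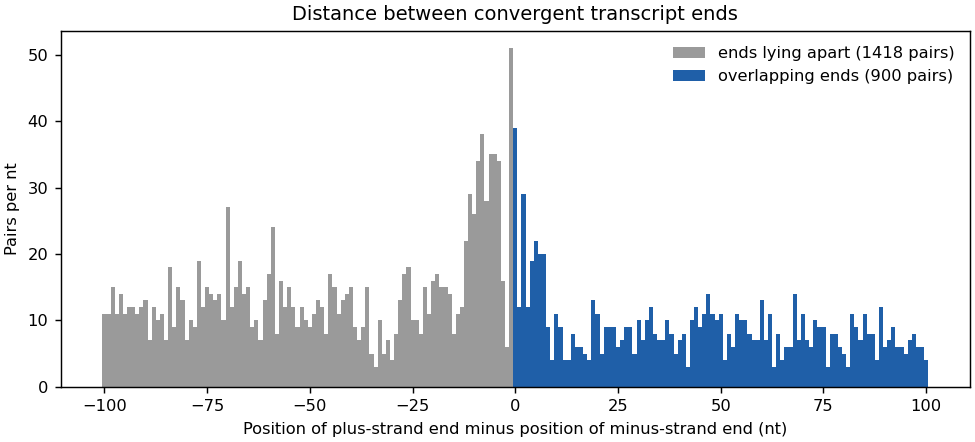
Number of pairs of convergent 3′ end clusters (y axis, pairs per nt) by the position of the plus-strand end minus the position of the minus-strand end (x axis, nt). Values of 0 and above are the 900 overlapping pairs (a value of 0 is an overlap of 1 nt), values below 0 the 1418 pairs lying apart; both sides of 0 are crowded, with 39 pairs at 0 and 51 at -1.

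Some pairs share an end, so they are not independent sites. A total of 256 clusters belonged to more than 1 overlapping pair, and 1 cluster belonged to at most 4. Linked by shared clusters, the 900 pairs formed 617 loci, of which 441 held a single pair and the largest held 8 clusters. When only mutually nearest clusters were paired, 464 pairs remained with a median overlap of 28.5 nt. The pairs lay on all 25 numbered chromosomes (891 pairs) and on unplaced scaffolds (9 pairs). Per 1000 clusters there were 10.02 pairs over all chromosomes, with the extremes at 14.96 on chromosome 5 and 5.21 on chromosome 24.

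The typical pair joined a well-covered end to a sparse one, as did pairs lying apart. The side with fewer pooled tags had a median of 8 tags (quartiles 5 and 17) and the other side a median of 76. In pairs lying apart these medians were 10 and 87.5. At least 10 tags stood on each side of 388 pairs, at least 20 on each side of 203 pairs (22.6%), and at least 100 on each side of 43 pairs. Neither strand led as a rule: the plus side held more tags in 425 pairs, the minus side in 450, and 25 pairs were equal. Distinct intervals, which are alignments that differ in start or end, gave a second view of the sparse sides. The side with fewer intervals had a median of 3, and in 192 pairs (21.3%, against 18.6% of pairs lying apart) it rested on a single interval.

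**Figure D2:**
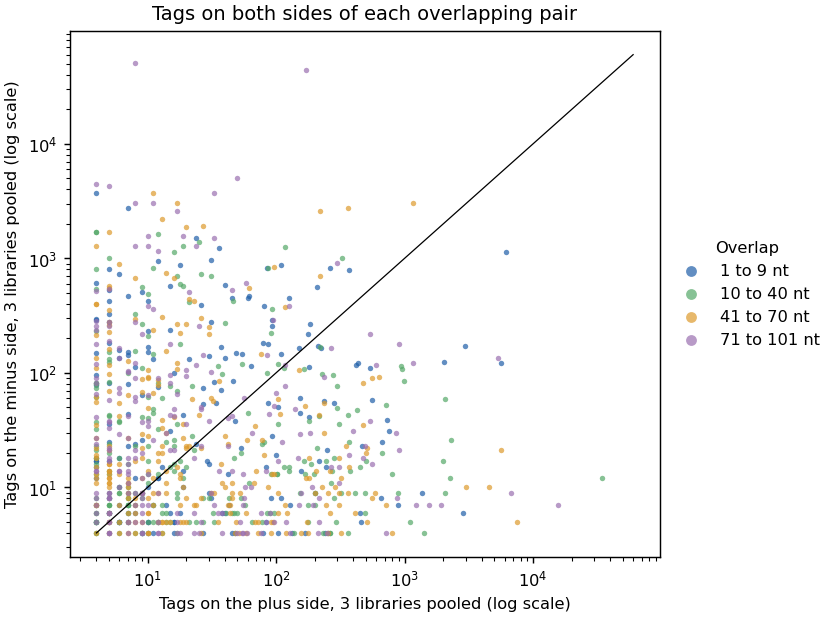
Tags on the plus side (x axis) and on the minus side (y axis) of each of the 900 overlapping pairs, 3 libraries pooled, both on log scales; colours give the overlap class and the line marks equal sides. Points gather along both axes, with a median of 8 tags on the lesser side and 76 on the greater.

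Clusters of overlapping pairs had a median of 18 pooled tags, against 23.5 for clusters of pairs lying apart and 12 for all clusters. Their ends were about as sharp: in clusters of at least 20 and under 200 tags the leading position held a median of 76.6% of the tags, against 77.5% in pairs lying apart and 78.4% over all clusters. Another cluster of the same strand lay within 1000 nt of 76.9% of them, against 65.1% of all clusters. Within that distance an overlapping end was usually a minor end of its strand, with a median share of the tags of 10%, 14.8% and 9.6%. The same medians were 8.62%, 13.04% and 9.76% over all clusters, and 16.7%, 26.9% and 17.4% in pairs lying apart. Pairs in which both sides held over 50 percent of the tags of their strand within 1000 nt were few, 33 of 364 measured at 24 hpf, 51 of 494 at 72 hpf and 30 of 413 in the adult. With 1 library per stage none of these differences was tested.

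Both sides of a pair were often not detected in the same library. A cluster needed only 4 tags pooled over the 3 libraries, and the lesser side had a median of 8. Many lesser sides therefore could not reach 4 tags in every library. With at least 4 tags counted as detection, both sides were detected in 290 pairs at 24 hpf (32.2%, 95% Clopper-Pearson interval 29.2% to 35.4%), in 412 at 72 hpf (45.8%, 42.5% to 49.1%) and in 281 in the adult (31.2%, 28.2% to 34.4%). The intervals cover counting error only, and pairs that share a cluster and PCR copies of a molecule make them too narrow. At least 1 library held both sides of 653 pairs, and all 3 libraries held both sides of 94 (10.4%, against 15.7% of pairs lying apart). No library held both sides of 27.4% of pairs, against 21.9% of pairs lying apart. In 171 pairs each side was detected somewhere but never in the same library as the other, beside 219 of the 1418 pairs lying apart. The 72 hpf library, which held both sides most often, also had the most tags. With every library thinned to the smallest total it still led, with 290, 347 and 277 pairs.

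Among pairs lying apart, both sides were detected in 33.6% of pairs at 24 hpf, 51.3% at 72 hpf and 40.5% (37.9% to 43.1%) in the adult. The adult interval lay above that of the overlapping pairs, while those of the embryo libraries overlapped. Depth per site differed in the same direction, with the medians of 23.5 and 18 tags given above, and its part in the result was not tested. Requiring at least 2 distinct intervals in place of 4 tags changed the order of the libraries: 169, 262 and 384 overlapping pairs then had both sides, with the adult highest. The embryo libraries held 31.5 and 30.7 tags per interval and the adult library 14.4, and intervals of 1 tag made up 15.1%, 14.6% and 53.0%.

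Within a library the lesser side contributed little, as it did in pairs lying apart. Here the lesser side is the one with fewer tags in that library, so it can differ between libraries. Over pairs with at least 20 tags in a library, its median share of the tags was 2.87% at 24 hpf (445 pairs), 5.92% at 72 hpf (544 pairs) and 3.98% in the adult (456 pairs), and 169, 124 and 107 of these pairs had no tag on it. A lesser side with at least 25 percent of the tags was found in 58, 81 and 71 of them (13.03%, 14.9% and 15.6%). In pairs lying apart the median shares were 4.21%, 7.22% and 7.41%. Such a lesser side was found in 16.8%, 23.4% and 20.9% of those pairs. In the adult the interval of the median was 3.25% to 5.11% in overlapping pairs and 6% to 8.62% in pairs lying apart. In the embryo libraries these intervals overlapped. The differences were not tested. The shortest overlaps had the higher medians. At 72 hpf the median share was 10.4% (95% interval 5.94% to 13.6%) at 1 to 9 nt, against 3.94% (1.60% to 6.82%) at 71 to 101 nt. The same classes had 4.45% (2.50% to 8.47%) and 1.26% (0% to 4.84%) at 24 hpf. In the adult they had 4.91% (3.03% to 7.79%) and 4.35% (2.39% to 9.78%). In each library the intervals of these classes overlapped.

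Levels are given in CPM, tags per 1000000 tags of the library. An end was tested between 2 libraries with at least 20 tags over both, and called when its CPM differed by at least 4-fold with a 95% interval that excluded 2-fold. These intervals count every tag as a separate molecule, so PCR copies make them too narrow. With 1 library per stage a call compares these libraries and has no replicate check, and in whole animals fewer cells that use an end and less RNA per cell cannot be told apart.

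The overlapping pair with the most pooled tags on its lesser side lay on chromosome 22. It joined a plus-strand end at 5591522 to a minus-strand end at 5591461, an overlap of 62 nt. Its plus side held 604, 424 and 131 tags, or 81.4, 43.2 and 17.5 CPM. Its minus side held 1815, 1147 and 75 tags, or 244.5, 117 and 10.04 CPM. Both sides were highest at 24 hpf and lowest in the adult, and the minus side led in the embryo libraries and the plus side in the adult. Between 24 hpf and the adult the minus side fell 24.4-fold (interval 19.3 to 31.1) and the plus side 4.64-fold (3.84 to 5.65). The minus end was the main end of its strand within 1000 nt, with 90.4% to 96.6% of the tags, whereas the plus end held 13.6% to 18.8%.

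That plus end had a stronger neighbour in the same locus. The plus-strand end at 5591454 held 445, 181 and 68.5 CPM, and overlapped by 6 nt a minor minus-strand end at 5591449 with 7.41, 6.42 and 0.669 CPM. This pair was also lower on both sides in the adult than at 24 hpf, by 6.49-fold (5.91 to 7.14) and 11.1-fold (4.47 to 35.4). The RNAs of both strands therefore ended at several close positions here, and the pairs of the locus are not separate observations. The minor minus end lay just outside the clustering window of the main minus end at 5591461. Its place as a separate end, and with it the 6 nt overlap, depends on that window. The plus end at 5591454 did not overlap the main minus end, which held 244.5, 117 and 10.04 CPM.

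On chromosome 6 the ends at 40503414 and 40503409 overlapped by 6 nt, and each was the only or nearly only end of its strand within 1000 nt (99.5% to 100% of the tags). The plus side held 595, 164 and 5384 tags, or 80.2, 16.7 and 721 CPM. The minus side held 525, 418 and 195 tags, or 70.7, 42.6 and 26.1 CPM. The sides were close to each other at 24 hpf, the minus side led at 72 hpf and the plus side led by far in the adult. Its plus side fell 4.80-fold from 24 to 72 hpf (interval 4.03 to 5.74) and then stood 43.1-fold higher in the adult (36.9 to 50.7), while the minus side did not reach 4-fold in any comparison.

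In the 3 best covered pairs with an overlap of 1 nt, no side was called between any libraries. At position 46774075 of chromosome 20 the ends of both strands fell on the same nucleotide. The plus side held 84, 142 and 144 tags, or 11.3, 14.5 and 19.3 CPM, and the minus side 264, 255 and 273 tags, or 35.6, 26.0 and 36.5 CPM. The minus side led in every library, and no ratio between libraries exceeded 1.70. The pair at 22347320 on chromosome 1, was led by its plus side in every library, with 117, 62.8 and 70.8 CPM against 3.91, 5.20 and 6.02. The third, at 46422259 on chromosome 3, was nearly balanced at 24 hpf, with 6.47, 6.11 and 13.8 CPM on the plus side and 5.12, 9.99 and 4.82 on the minus side. The minus side led at 72 hpf and the plus side in the adult.

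The remaining pairs with the most tags on the lesser side lay on chromosomes 14 and 10. On chromosome 14, ends at 18522967 and 18522905 overlapped by 63 nt, with 23.7, 13.9 and 6.56 CPM on the plus side and 107, 182 and 23.6 on the minus side. Both sides were lowest in the adult, and the minus side was 7.72-fold lower there than at 72 hpf (interval 6.61 to 9.07). On chromosome 10, ends at 27627324 and 27627304 overlapped by 21 nt, with 11.6, 4.48 and 26.2 CPM on the plus side and 38.1, 28.6 and 59.6 on the minus side. Both sides were lowest at 72 hpf and highest in the adult, though only the plus side was called, at 5.85-fold (4.20 to 8.31) between them.

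Long overlaps also occurred between ends with at least 100 tags each. The longest of these, 90 nt on chromosome 18 between 19231875 and 19231786, had 8.08, 17.4 and 9.24 CPM on the plus side and 54.0, 31.3 and 26.4 on the minus side. That minus end was a minor one, with 1.32%, 3.73% and 16.2% of the tags of its strand within 1000 nt. The 83 nt overlap on chromosome 13 between 33920069 and 33919987 had 14.0, 20.2 and 79.8 CPM on the plus side and 9.43, 2.96 and 10.4 on the minus side. On chromosome 21, between 260753 and 260671, an overlap of 83 nt joined a plus side of 270.2, 146 and 251 CPM to a minus side of 0.404, 10.2 and 4.42 CPM. The minus side there held 3, 100 and 33 tags, while the plus side moved by less than 2-fold.

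**Figure D3:**
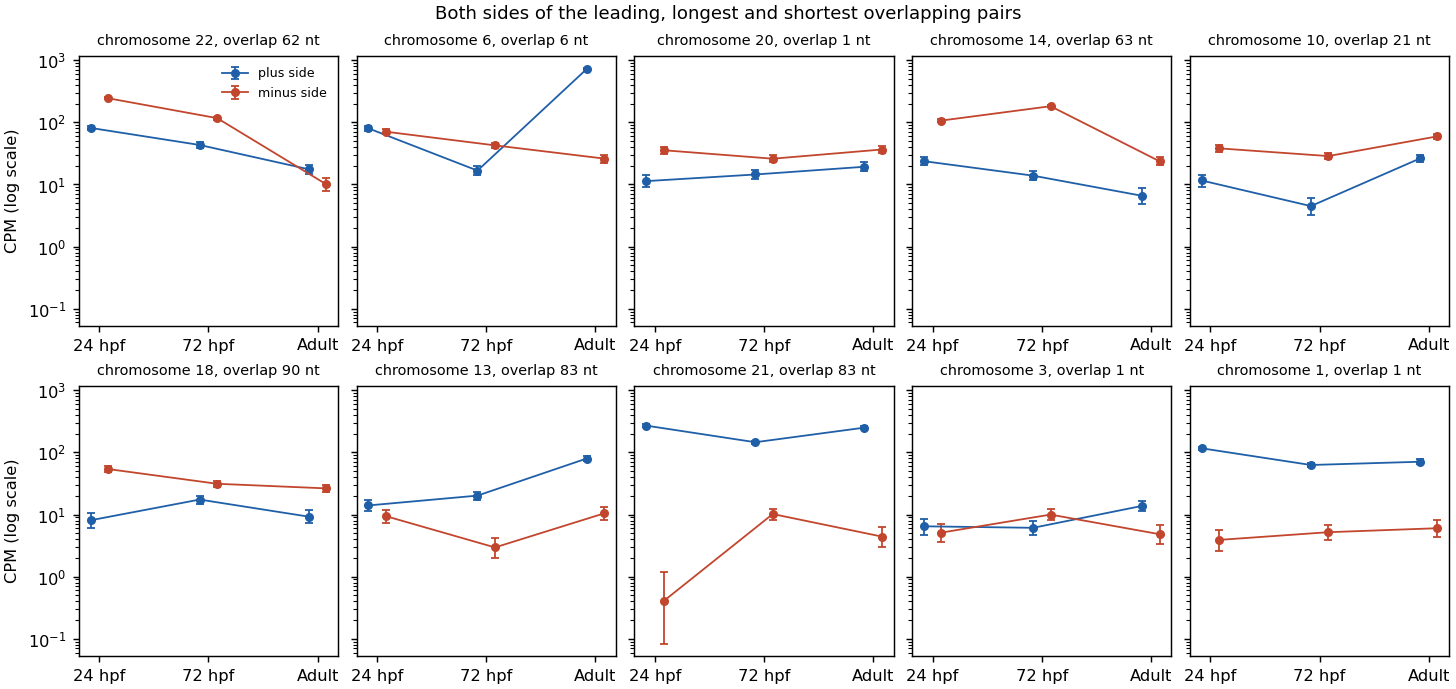
Levels of both sides (y axis, CPM on a log scale) in the 3 libraries (x axis) for the pairs with the most tags on the lesser side and for the longest and shortest overlaps among pairs with at least 100 tags on each side; bars are 95% intervals of the count. The sides change order in 3 of the panels, those of the pair on chromosome 22, of the pair on chromosome 6 (16.7 against 42.6 CPM at 72 hpf and 721 against 26.1 in the adult) and of the pair on chromosome 3.

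Libraries were then compared end by end, to ask whether overlapping ends rose and fell between the stages more or less often than other ends. The 3 comparisons share their libraries, so they are not independent of each other.

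At 72 hpf against 24 hpf, 100 of 604 tested ends were higher (16.6%) and 40 lower (6.62%), beside 20.3% and 7.95% of all tested clusters outside chromosome M. In the adult against 72 hpf, 89 of 631 were higher (14.1%) and 162 lower (25.7%), beside 19.2% and 28.2%. In the adult against 24 hpf, 106 of 565 were higher (18.8%) and 101 lower (17.9%), beside 23.7% and 20.2%. Each share was below that of all clusters, and so was each share of the ends of pairs lying apart, at 19.5% and 7.66%, 13.9% and 26.7%, and 17.0% and 18.7%. These differences were not tested. The median log2 ratio of the tested ends was 0.23, -0.52 and -0.11 in the 3 comparisons, against 0.39, -0.67 and -0.04 over all tested clusters.

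The balance of higher and lower ends in the adult depended on how the libraries were scaled. Scaling by the median ratio over clusters with at least 1 tag in every library, in place of the library sum, moved every log2 ratio by -0.24, 0.73 and 0.49 in the same order of comparisons. For the adult against 72 hpf this turned 89 higher and 162 lower ends (35.5% of the called ends higher) into 126 higher and 88 lower (58.9%). For the adult against 24 hpf it turned 106 and 101 (51.2%) into 124 and 71 (63.6%), and for 72 hpf against 24 hpf 100 and 40 (71.4%) into 89 and 49 (64.5%). The size of the change depended on the clusters used: over clusters with at least 20 tags in every library, a setting chosen after seeing the data, the log2 ratios moved by -0.09, 0.39 and 0.30. The adult against 72 hpf then had 107 higher and 122 lower ends (46.7%), so the direction did not turn, the adult against 24 hpf had 119 and 82 (59.2%), and 72 hpf against 24 hpf had 96 and 41 (70.1%). The fall of the plus side of the chromosome 22 pair at 5591522 from 24 hpf to the adult was 3.31-fold with the first and 3.78-fold with the second of these scalings, and no longer called.

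Few pairs had both sides called, and calls were a minority among single ends too. Where both were called, the same direction was more frequent than opposite ways in each comparison, as over all convergent pairs. Both sides could be tested in 141, 145 and 130 pairs. At 72 hpf against 24 hpf, 6 of 141 pairs were higher on both sides (4.26%), 1 lower on both (0.709%) and 1 went opposite ways (0.709%), beside 3.65%, 0.644% and 1.07% of all convergent pairs within 100 nt. In the adult against 72 hpf the counts of 145 were 4 higher (2.76%), 11 lower (7.59%) and 5 opposite (3.45%), beside 2.98%, 8.93% and 5.56%. In the adult against 24 hpf the counts of 130 were 6 higher (4.62%), 6 lower (4.62%) and 5 opposite (3.85%), beside 3.34%, 4.06% and 5.25%. Pairs that share a cluster are counted separately here. The lower ones include 5591522 with 5591461, 5591522 with 5591449 and 5591454 with 5591449, all in the same locus of chromosome 22. The higher ones include 12743690 with 12743599 and with 12743612. In the adult against 72 hpf the opposite ones include 14477652 with 14477580 and with 14477610. Counts by locus were not made. Counts of this size lie near those of all convergent pairs, which include the overlapping ones.

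A single side was called in 42, 70 and 60 pairs (29.8%, 48.3% and 46.2%), beside 38.2%, 43.3% and 43.4% of all convergent pairs within 100 nt, and 91, 55 and 53 pairs had no call on either side. Across pairs, the log2 ratios of the plus and minus sides had a Pearson correlation of 0.13 (141 pairs), 0.18 (145) and 0.15 (130), and a Spearman correlation of 0.14, 0.19 and 0.14. Both sides of a pair come from the same libraries and some pairs share an end, so these values describe the pairs and carry no test.

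**Figure D4:**
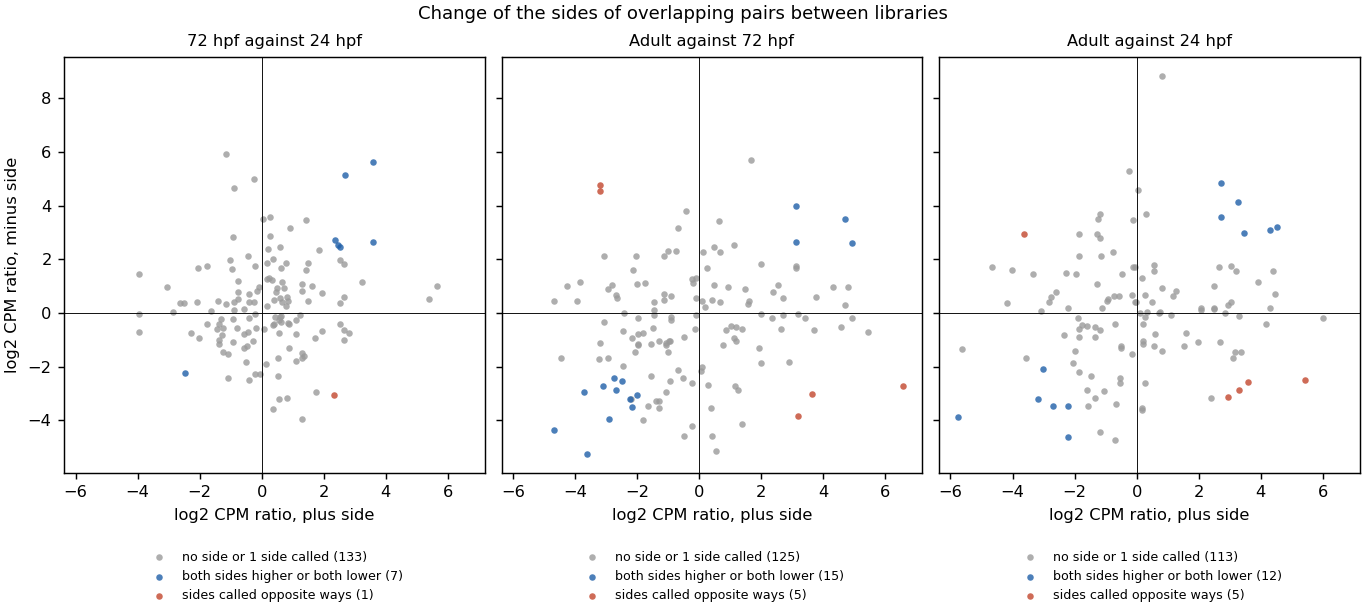
The log2 CPM ratio of the plus side (x axis) against that of the minus side (y axis) for overlapping pairs with both sides tested, in each comparison of libraries, counts under 3 set to 3. Coloured points mark pairs with both sides called; they are few (8 of 141, 20 of 145 and 17 of 130) and the cloud shows little slope.

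The sides of a pair that was lower on both did not always fall at the same step. On chromosome 3, ends at 31211727 and 31211695 overlapped by 33 nt. The plus side held 108, 15.0 and 2.01 CPM, and the minus side 5.93, 6.11 and 0.402 CPM. The plus side fell in both steps, by 7.19-fold (interval 6.03 to 8.64) and 7.46-fold (4.38 to 13.7), whereas the minus side fell only in the second, by 15.2-fold (4.97 to 75.9).

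The single pair that was lower on both sides at 72 hpf than at 24 hpf lay on chromosome 5 at 39581967 and 39581914, with an overlap of 54 nt. Its plus side held 139, 33 and 46 tags and its minus side 493, 138 and 68, so that the plus side fell 5.57-fold (3.79 to 8.41) and the minus side 4.72-fold (3.90 to 5.75) from 24 to 72 hpf. On chromosome 7, ends at 27004428 and 27004422 overlapped by 7 nt, with 0, 201 and 6 tags on the plus side and 152, 400 and 15 on the minus side. Both sides peaked at 72 hpf, and in the adult they were 25.5-fold (11.5 to 70.3) and 20.3-fold (12.2 to 36.6) lower than there. The plus side, without a tag at 24 hpf, was 50.7-fold higher at 72 hpf with the empty library set to 3 tags, a ratio that is not itself a lower bound. On chromosome 11, ends at 45658222 and 45658221 were also both lower in the adult than at 72 hpf, but the plus side, with 37, 121 and 23 tags, was 4.005-fold lower (2.55 to 6.56) and only 2.42-fold or 3.07-fold lower with median-ratio scaling over clusters of at least 1 or at least 20 tags in every library, and was then not called.

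Of the pairs with at least 100 tags on each side, 1 was higher on both sides in any comparison. On chromosome 3, ends at 29020757 and 29020728 overlapped by 30 nt, with 12, 20 and 133 tags on the plus side and 9, 28 and 72 on the minus side. The adult held the most on both sides, and the plus side was 11.01-fold (6.10 to 21.9) and the minus side 7.95-fold (3.96 to 18.1) higher than at 24 hpf.

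Among pairs with at least 100 tags on each side, those with opposite calls changed their leading side. On chromosome 8, ends at 14477652 and 14477610 overlapped by 43 nt, with 25, 85 and 7 tags on the plus side and 41, 18 and 320 on the minus side. In the adult the plus side was 9.24-fold lower (4.30 to 23.7) and the minus side 23.4-fold higher (14.5 to 39.9) than at 72 hpf. On chromosome 22, ends at 837074 and 837067 overlapped by 8 nt, with 5, 0 and 217 tags on the plus side and 61, 94 and 11 on the minus side. From 72 hpf to the adult the plus side rose 95.02-fold with the empty library set to 3 tags, and the minus side fell 6.51-fold (3.47 to 13.5). Its plus-side tags came from 2, 0 and 19 distinct intervals, but the minus-side tags from only 3, 5 and 4, so that side changed little in intervals. The fold of the minus side was 3.93 and no longer called with median-ratio scaling over clusters of at least 1 tag. It was 4.98 and called over those of at least 20.

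The share of a pair's tags on the plus side does not depend on how the libraries are scaled. It was compared in pairs with at least 20 tags in each of the 2 libraries, and counted as shifted when it moved by at least 20 percentage points with intervals that did not overlap. At 72 hpf against 24 hpf, 51 of 409 pairs shifted (12.5%, beside 17.6% of all convergent pairs within 100 nt), in the adult against 72 hpf 63 of 388 (16.2%, beside 23.1%), and in the adult against 24 hpf 62 of 362 (17.1%, beside 21.3%). Shifts went both ways, with 30, 33 and 34 pairs toward the plus side and 21, 30 and 28 toward the minus side. The leading side changed in 18, 35 and 24 of the shifted pairs. Pairs lying apart shifted in 142 of 688, 177 of 653 and 141 of 593 cases (20.6%, 27.1% and 23.8%). They also had the larger share of pairs with at least 20 tags on each side (30.4% against 22.6%), and its part in the difference was not tested.

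Some of the largest shifts crossed from one strand to the other, and others did not change the leading side. The plus share of the chromosome 6 pair was 53.1% (50.2% to 56.1%), 28.2% (24.6% to 32.0%) and 96.5% (96.0% to 97.0%). That of the chromosome 8 pair at 14477652 was 37.9% (26.2% to 50.7%), 82.5% (73.8% to 89.3%) and 2.14% (0.865% to 4.36%). From 72 hpf to the adult it fell by 80.4 points, the largest shift where both libraries compared held at least 100 tags of the pair. The chromosome 22 pair at 837074, with 94 tags at 72 hpf, moved further, from 0% (up to 3.85%) there to 95.2% (91.5% to 97.6%) in the adult. The chromosome 5 pair at 33466940 and 33466939, which overlapped by 2 nt, was led by the minus side at 24 hpf and in the adult, with plus shares of 2.78% and 7.26%, and by the plus side at 72 hpf, with 71.5% (65.3% to 77.2%). At 72 hpf its plus-side tags came from 6 distinct intervals and its minus-side tags from 8, so the plus side led there in tags only.

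Other pairs differed between the stages in various ways. The plus share of the chromosome 11 pair at 45658222 went from 31.6% (23.3% to 40.9%) to 78.6% (71.2% to 84.8%) and then 23 of 23 adult tags (85.2% to 100%). The chromosome 8 pair at 21700779 and 21700777, an overlap of 3 nt, went from 97.3% (93.2% to 99.3%) to 85.9% (79.6% to 90.8%) and 60.7% (54.2% to 66.8%), as its minus side grew from 4 to 23 and 96 tags beside a plus side of 143, 140 and 148. Its minus-side tags came from only 2, 4 and 7 distinct intervals, and its plus-side tags from 15, 10 and 20. The chromosome 5 pair at 30815633 and 30815561, an overlap of 73 nt, had its lowest plus share at 72 hpf, with 37.9%, 7.05% and 52.7%. The chromosome 11 pair at 11440549 and 11440525, an overlap of 25 nt, had 14.5%, 22.0% and 53.4%, so that the strands were near equal only in the adult.

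**Figure D5:**
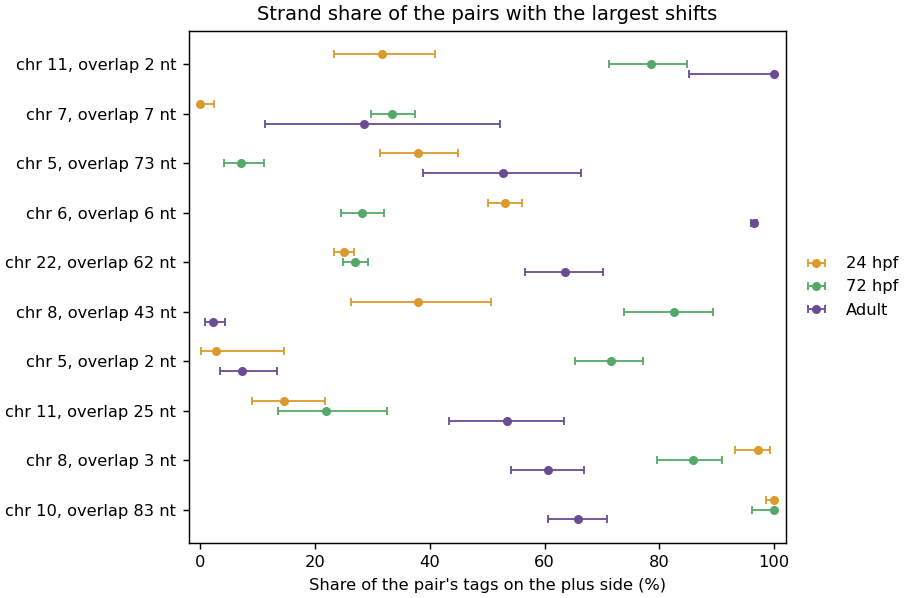
Share of a pair's tags on the plus side (x axis, %) in each library, with 95% Clopper-Pearson intervals, for the pairs with the largest shifts between libraries (y axis, by chromosome and overlap). The chromosome 8 pair with a 43 nt overlap spans the widest range, from 82.5% at 72 hpf to 2.14% in the adult.

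Pairs with both sides detected in a single library numbered 104, 202 and 111, together 46.3% of the overlapping pairs. Among the 1418 pairs lying apart they numbered 134, 323 and 203, together 46.5%. In the 2 leading pairs of each library, 1 side was detected in every library and the other side in 1 alone. On chromosome 10, ends at 44269530 and 44269448 overlapped by 83 nt, with 271, 95 and 228 tags on the plus side and 0, 0 and 118 on the minus side. The adult tags of that minus side came from 12 distinct intervals. Their level was 39.1-fold that at 24 hpf with the empty library set to 3 tags, a ratio that is not itself a lower bound. At 6941525 on chromosome 18, with an overlap of 1 nt, the minus side held 94, 143 and 213 tags and the plus side 0, 0 and 45, from 12 intervals.

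The embryo libraries gave similar cases with fewer intervals. On chromosome 7, the plus side at 65562579 held 88, 287 and 100 tags and the minus side at 65562529 held 35, 0 and 0, from 3 intervals. At 54392073 on the same chromosome, the minus side held 79, 64 and 25 tags and the plus side 35, 2 and 0, the 35 tags from 4 intervals. For 72 hpf, the pair on chromosome 3 at 47690324 and 47690300 held 166, 225 and 38 tags on the plus side and 0, 45 and 2 on the minus side. The chromosome 5 pair at 32253622 and 32253552 also had both sides at 72 hpf: its minus side held 73, 4827 and 97 tags, 50.02-fold higher at 72 hpf than at 24 hpf (39.7 to 63.9), beside 0, 48 and 2 on the plus side.

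A small number of intervals were listed on both strands at the same position, 78 over the 3 libraries, of which 12 had equal tags on both. Of the overlapping pairs, 31 contained such an interval. Whether tags were assigned to the wrong strand was not tested.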

How the data were processed

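Each deposited file lists intervals with a strand and a whole number in the name field, read here as a raw tag count that the authors did not normalise. Tags were aligned with Bowtie to Zv9 (danRer7), per the submitters' processing notes; for its version, trimming and the treatment of multiple matches, the sources used here give nothing. Plus-strand intervals were taken to have their 3′ end at the end coordinate and minus-strand intervals at the start; printed positions are 1-based danRer7 positions with the display offset of 1 from the file headers added, which leaves overlaps unchanged. Pooled ends were clustered per strand, most tags first, each absorbing its neighbours within 10 nt, and those under 4 tags were dropped; chromosome M was left out. Libraries were scaled to CPM. Ratios carry exact conditional Clopper-Pearson 95% intervals. An empty library was set to 3 tags, which is 0.404, 0.306 and 0.402 CPM at 24 hpf, 72 hpf and in the adult. The 95% upper limits of 0 tags were higher, at 0.497, 0.376 and 0.494 CPM, so ratios to an empty library are not lower bounds. Medians carry order-statistic intervals. All of these intervals cover counting error only, and PCR copies of a molecule make them too narrow.

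Pairs were named by rule: the 5 with the most tags on the lesser side; the 3 longest and 3 shortest overlaps with at least 100 tags on each side; per comparison, up to 3 of such pairs with both sides higher, both lower or opposite, and the 2 largest shifts each way with at least 100 tags in each library; and per library the 2 leading pairs with both sides detected there alone. A pair sharing a cluster with one already listed was passed over. The members, lists and rules were chosen with earlier results of these data known. Clustering and pairing were tested on simulated pairs that were isolated and well covered, and calls on simulated counts without PCR copies. Sparse or linked pairs were not simulated. Python 3.11.15, numpy 2.4.6, pandas 2.3.3, scipy 1.17.1 and networkx 3.6.1 were used.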

Additional observations from a re-analysis of the deposited data

How the results depend on the processing

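With 1 library per stage there was no replicate check, copies of a molecule made by PCR were counted as tags, and many lesser sides rest on few tags, so that a side without tags may lie below the floor of its library. Sequence, genes and poly(A) signals were not analysed here, and the planned search for signals was not run. No paired analysis was possible because each stage has 1 library. Of 171 values recomputed under alternatives, 95 stayed within the spread allowed (1.5 times for counts, the 95% interval for medians and shares) and 76 moved; those that moved are given here, and their cause was not tested unless stated. Single linkage, the tag-weighted median end and the requirement of both sides in the same library moved none of 4 values each (the number of pairs, the median overlap and the shares of overlaps up to 40 nt and of 1 to 9 nt). Leaving out 1 library gave 544 (without 72 hpf) to 687 pairs. The number of pairs fell from 900 to 388 with at least 10 tags per cluster, 525 within 50 nt, 464 for mutually nearest clusters, 398 with distinct intervals in place of tags and 203 with at least 20 tags on each side, all of which admit fewer clusters or pairs by construction. In the same order, the median overlap went from 45 to 40.5, 21, 28.5, 39 and 34 nt, the share of overlaps up to 40 nt from 46.6% to 50%, 79.8%, 61.2%, 51.5% and 53.7%, and the share of overlaps of 1 to 9 nt from 20.2% to 23.5%, 34.7%, 36.4%, 23.1% and 31.5%. The settings for the last of these shares and the requirements of 20 tags on each side and of both sides in the same library were chosen after seeing the data. Pairs with both sides detected fell to 123, 180 and 110 at 24 hpf, 72 hpf and in the adult with at least 10 tags, and to 169 and 262 in the embryo libraries with at least 2 distinct intervals. The median share of the lesser side rose to 5.00%, 12.0% and 20.0% with distinct intervals and fell to 2.80% at 72 hpf and 1.73% in the adult in pairs with at least 100 tags. With distinct intervals in place of tags an end can give only as many counts as there are alignments of different length, and calls nearly ended: 0 higher and 0 lower ends at 72 hpf against 24 hpf, 4 and 3 in the adult against 72 hpf, 0 and 2 in the adult against 24 hpf, 0 pairs with both sides higher, both lower or opposite in each comparison, and 0, 0 and 2 shifted pairs, of 42, 54 and 43 measured. At 8-fold with an interval excluding 4-fold, 49 ends were higher and 12 lower at 72 hpf against 24 hpf, 56 and 66 in the adult against 72 hpf, and 63 and 39 in the adult against 24 hpf. Pairs with both sides higher, both lower and opposite then numbered 1, 0 and 0, then 2, 2 and 2, then 3, 1 and 0. A limit of 40 percentage points left 12, 33 and 25 shifted pairs. Median-ratio scaling left 88 ends lower in the adult against 72 hpf, with 8 pairs higher and 4 lower on both sides, and 3 pairs lower on both sides in the adult against 24 hpf. Over clusters with at least 20 tags in every library, a setting also chosen after seeing the data, it gave 8 pairs higher and 5 lower on both sides in the adult against 72 hpf and 3 lower in the adult against 24 hpf. With at least 1 tag it turned the direction of none of the 64 calls on the sides of the 28 named pairs and ended 0 of 13, 4 of 26 and 5 of 25 of them; with at least 20 tags it ended 0, 2 and 3. Libraries thinned to the smallest gave 3 pairs higher on both sides at 72 hpf against 24 hpf, and a window of 24 nt gave 3 pairs lower on both sides in the adult against 24 hpf.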
